A study of Arabidopsis thaliana with 8 samples.

Results

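The genes described here are those encoded by the plastid genome, taken as every transcript model whose identifier starts with ATCG. There were 88 such models among the 27416 in the deposited tables, including a partial copy of ycf1. All 88 were assigned to classes of proteins, and each length is a multiple of 3. By class they comprised 26 models of ribosomal proteins, 15 of photosystem II, 12 of the NDH complex, 6 of the cytochrome b6f complex, 6 of the ATP synthase, 5 of photosystem I, 4 of the plastid RNA polymerase, the large subunit of Rubisco as 1 model, and 13 of other proteins. Of the 88, 84 had enough reads to be tested. The 4 left untested were psbN, rps16 (ATCG00050) and the models ATCG00870 and ATCG01270.

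The data are RNA sequencing libraries of entire dark-grown seedlings of Arabidopsis thaliana (Col-0), with 2 libraries in each of 4 groups. The groups were a phyA phyB mutant given red light (phyAB), a phyB mutant given red light (phyB), wild type given red light (WT red) and wild type left in darkness (WT dark). All seedlings spent 3 days at 4 °C, then 12 h in white light and 5 days in darkness, on medium with 1% sucrose. Red light lasted 1 h, with a fluence rate of 50 µmol per square metre per second. The sources do not name the alleles of either mutant. Dark-grown mutants were not part of the groups compared, so a difference between a mutant and WT red cannot be told apart from one present before the light.

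Plastids keep a small genome from their bacterial ancestor. It codes for core subunits of both photosystems, of the ATP synthase and of the NDH complex, and for part of the plastid's own gene expression machinery. Most of the other subunits are encoded in the nucleus and imported. Plastid genes are transcribed by a bacterial-type RNA polymerase, whose core subunits rpoA, rpoB, rpoC1 and rpoC2 are plastid-encoded and whose sigma factors SIG1 to SIG6 are nuclear-encoded, and by a phage-type polymerase encoded in the nucleus. Red light reaches the nucleus through the phytochromes, of which phyA dominates in dark-grown seedlings and phyB is light-stable. The libraries were made from RNA bound to oligo(dT) beads. In plastids a poly(A) tail is known as a mark for RNA decay rather than a general feature of messengers, so the values below are relative levels within the RNA that the beads kept.

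Total reads per library ranged from 15926547 to 22116924, of which 35452 to 61554 lay on plastid genes. The squared difference between the libraries of a group averaged 1.27 to 1.35 times what counting alone gives over all models. Over plastid genes it averaged 1.21 to 1.71 times. No label states that the libraries of a group were grown separately. The p-values thus reflect only library-to-library spread, possibly of technical origin. As a check of the labels, PHYA stood at 126.4 and 125.8 CPM (reads scaled to library size) in phyAB, below the 708.0 and 706.7 CPM of phyB, the 452.6 and 459.8 CPM of WT red and the 831.0 and 824.1 CPM of WT dark. PHYB stood at 54.0 and 51.5 CPM in phyAB and 62.7 and 64.7 CPM in phyB, below the 93.8 and 93.0 CPM of WT red and the 80.4 and 81.0 CPM of WT dark. PORA, an enzyme gene of dark-grown seedlings that light represses, read 388.3 and 387.8 CPM in phyAB, 16.9 and 17.3 CPM in phyB, 17.8 and 20.7 CPM in WT red and 134.0 and 140.4 CPM in WT dark. Markers of root and shoot were both present and differed between groups. The 6 root markers summed to 92.3 and 91.5 CPM in phyAB, 85.1 and 78.1 CPM in phyB, 86.6 and 83.5 CPM in WT red and 99.8 and 96.2 CPM in WT dark, and the root hair gene RHD6 read 6.45 and 7.04, 0.942 and 0.995, 3.90 and 3.43, and 10.4 and 8.71 CPM in the same groups. The 6 shoot markers summed to 93.8 and 93.4 CPM in phyAB, 129.5 and 122.9 CPM in phyB, 115.8 and 120.8 CPM in WT red and 69.6 and 75.5 CPM in WT dark, while the stem-cell gene CLV3 was at or below 0.25 CPM. In WT red against WT dark 2 of 6 root markers fell, RHD6 and SHR, and 3 of 4 tested shoot markers rose, the stomatal lineage gene SPCH (2.52 ± 0.28), STM and ATML1. Of all genes tested there, 22.7% were called lower and 24.1% higher. In phyB against WT red 1 root and 1 shoot marker were lower (14.1% of all genes). In phyAB against WT red 2 root markers were higher (22.3%) and 2 shoot markers lower (22.7%). In phyAB against phyB 2 root markers were higher (26.1%) and 4 of 4 shoot markers lower (24.1%). Their part in the differences below was not tested.

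The coding sequences of 3 stretches of photosystem II genes are shown because the results below turn on them. They were read from the RefSeq annotation of TAIR10.1 on the plastid genome. The first is psbM (ATCG00220, Pltd:28707-28811, minus strand), a small subunit at the dimer interface of photosystem II, and the second is psbZ (ATCG00300, Pltd:35751-35939, plus strand), a small peripheral subunit. The third is the stretch shared by psbD and psbC (Pltd:33720-33772, plus strand), which code for the reaction centre protein D2 and the inner antenna protein CP43. Capitals mark start and stop codons, and in the shared stretch they are the annotated start of psbC and the stop of psbD.
psbM: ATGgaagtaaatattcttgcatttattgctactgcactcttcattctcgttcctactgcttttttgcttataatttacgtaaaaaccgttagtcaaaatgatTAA
psbZ: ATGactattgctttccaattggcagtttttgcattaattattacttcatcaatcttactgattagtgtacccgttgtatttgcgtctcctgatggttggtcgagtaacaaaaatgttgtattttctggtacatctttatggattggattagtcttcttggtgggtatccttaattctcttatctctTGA
psbD_psbC_shared: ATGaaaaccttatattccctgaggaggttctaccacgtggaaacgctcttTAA
Reads within these 53 shared bases cannot be assigned to 1 of the pair.

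The level per length, given by the authors' RPKM (reads scaled to model length and library size), differed widely among the genes. psbM averaged 710.0 RPKM over the 8 libraries, followed by rpl32 with 657.3, rpl16 with 455.7 and rpl14 with 388.9 RPKM, the last 3 being proteins of the large ribosomal subunit. The genes of the main photosynthetic proteins lay far below them. rbcL, the large subunit of Rubisco, averaged 10.99 RPKM, and psbA, the D1 reaction centre protein, averaged 7.70 RPKM. Photosystem I's reaction centre proteins psaA and psaB averaged 3.15 and 3.40 RPKM. The lowest of the tested genes per length was ycf2, an import motor component, with 0.347 and 0.336 RPKM for its 2 copies. By class, the 26 ribosomal protein models held 50.7% to 53.8% of the plastid reads of a library. ycf1, which codes for a protein of the inner envelope, held 18.5% of all plastid reads over the 8 libraries.

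Because oligo(dT) beads can bind A-rich stretches, the base content of the coding sequences was set beside the levels. Spearman's rho between mean RPKM and the share of A was 0.33 over the 74 genes with a sequence, counting inverted repeat copies once. It was 0.07 for the largest number of A in any 25 bases, -0.02 for the longest run of A and -0.27 for coding length. These genes share transcripts, so the values are descriptions. The stretches below show how A-rich these sequences can be, with rpoA (Pltd:78077-78121, minus strand) and ycf1 (Pltd:126469-126513, minus strand) as A-rich examples and psaA (Pltd:40867-40911, minus strand) as one with fewer A, and the 25 bases that hold most A in capitals.
rpoA: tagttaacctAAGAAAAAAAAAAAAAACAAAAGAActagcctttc
ycf1: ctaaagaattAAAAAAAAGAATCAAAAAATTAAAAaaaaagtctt
psaA: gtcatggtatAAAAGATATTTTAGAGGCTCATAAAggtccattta
The richest window held 22 A in rpoA, 20 in ycf1 and 12 in psaA, and the mean levels were 72.4, 82.6 and 3.15 RPKM in that order. Other genes showed the reverse, since rpoB held 19 A in a window at 3.49 RPKM and rpoC2 18 A at 1.04 RPKM, while psbM held 13 A at 710.0 RPKM. The median richest window held 14.5 A both in the 18 genes with the highest levels and in the 18 with the lowest. The median share of A was 36.3% in the highest 18 and 31.0% in the lowest 18, and the median longest run was 7 and 6 A. The part of base content in these levels was not tested.

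Plastid genes took a larger share of the reads in both mutants than in wild type. The share was 0.252% and 0.253% in phyAB, 0.279% and 0.278% in phyB, 0.213% and 0.217% in WT red and 0.213% and 0.211% in WT dark. The mutants did not overlap with WT red, while WT red and WT dark did overlap. The mean share in phyAB was 17.7% above that of WT red, and that in phyB was 29.6% above it. The other organelle moved differently, since mitochondrial genes took 0.0262% ± 0.000930 of reads in phyAB, 0.0184% ± 0.000514 in phyB, 0.0278% ± 6.67e-05 in WT red and 0.0287% ± 0.000170 in WT dark (SD, n = 2 each). In phyB the mitochondrial share differed by -33.7% from that of WT red. Exact two-sided permutation tests gave p = 0.333 for each of these comparisons except the plastid share of WT red against WT dark, where p = 0.667. The smallest p that 2 libraries against 2 allow is 0.333, so such a test cannot pass 0.05 here. In TMM-scaled CPM, the sum over all plastid genes in phyAB was 1.13 times that of WT red. It was 1.02 times without the rpl23 to rpoA cluster and 0.909 times without that cluster, ycf1 and its partial copy, while in phyB the 3 ratios were 1.26, 1.26 and 1.22. In bulk tissue, a change in the number of plastids or of cells that hold them cannot be told apart from one in RNA per plastid.

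**Figure D1:**
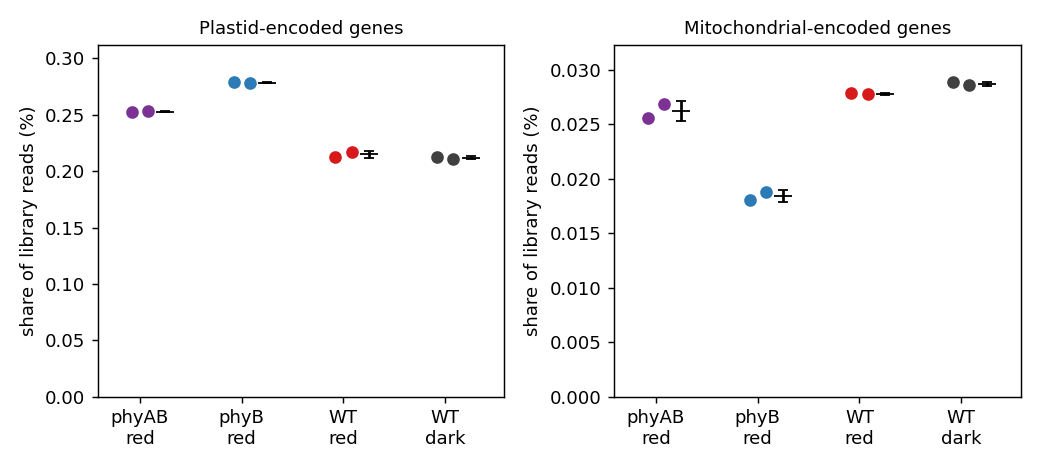
Share of library reads, in percent, on plastid-encoded genes (left) and mitochondrial-encoded genes (right), by group. Each dot is 1 library and the bar beside it is the mean ± SD of 2 libraries. The plastid share lies at 0.278% to 0.279% in phyB and 0.252% to 0.253% in phyAB, above both wild-type groups, and the mitochondrial share is lowest in phyB.

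Whether 1 h of red light changed plastid transcripts in wild type is asked by WT red against WT dark. A gene was called where edgeR's quasi-likelihood test gave an adjusted p below 0.05 over all 20716 genes tested. Of the 84 tested plastid genes, 9 rose and 12 fell, while 46.8% of all genes tested were called in either direction (24.1% higher and 22.7% lower). The 21 calls among 84 plastid genes were thus a smaller share than in the background. DESeq2 called 10 plastid genes (35.2% of all genes with an adjusted p), and edgeR with the coefficient of variation between libraries set to 0.1 called 12 (24.4%). With each library scaled by its own plastid reads, 9 rose and 16 fell (48.4% of all genes called, 21.2% higher and 27.2% lower). The median log2 change was 0.01 over the plastid genes and 0.00 over all genes.

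The genes that rose included all 3 of the psbD unit. psbZ read 5.28 and 6.21 CPM in WT red, against 2.00 and 2.31 CPM in WT dark, a log2 change of 1.41 ± 0.21 (SE; edgeR adjusted p = 2.48e-09). psbD read 35.6 and 35.4 CPM in WT red, against 24.6 and 24.7 CPM in WT dark, a log2 change of 0.53 ± 0.07 (edgeR adjusted p = 1.27e-10). psbC read 34.0 and 33.2 CPM in WT red, against 24.7 and 27.8 CPM in WT dark, a log2 change of 0.36 ± 0.07 (edgeR adjusted p = 1.08e-05). In each of these genes both WT red libraries lay above both WT dark libraries. Together the 3 genes took 3.44% and 3.37% of plastid reads in WT red, against 2.41% and 2.58% in WT dark. psbM also rose, by 0.32 ± 0.05 on the log2 scale, with 78.4 and 79.7 CPM in WT red, against 62.3 and 63.9 CPM in WT dark (edgeR adjusted p = 1.04e-09).

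Other genes of photosynthesis fell in the same hour. rbcL read 10.4 CPM in both WT red libraries, against 22.3 and 20.9 CPM in WT dark, a log2 change of -1.05 ± 0.10 (edgeR adjusted p = 1.5e-17). psaA read 5.13 and 5.58 CPM in WT red, against 7.71 and 8.59 CPM in WT dark, a log2 change of -0.61 ± 0.15 (edgeR adjusted p = 0.000399). psbA read 7.72 and 5.71 CPM in WT red, against 9.27 and 12.2 CPM in WT dark, a log2 change of -0.66 ± 0.15 (edgeR adjusted p = 8.08e-05). In all 3 genes both WT red libraries lay below both WT dark libraries. DESeq2 did not call psbA (adjusted p = 0.0504).

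**Figure D2:**
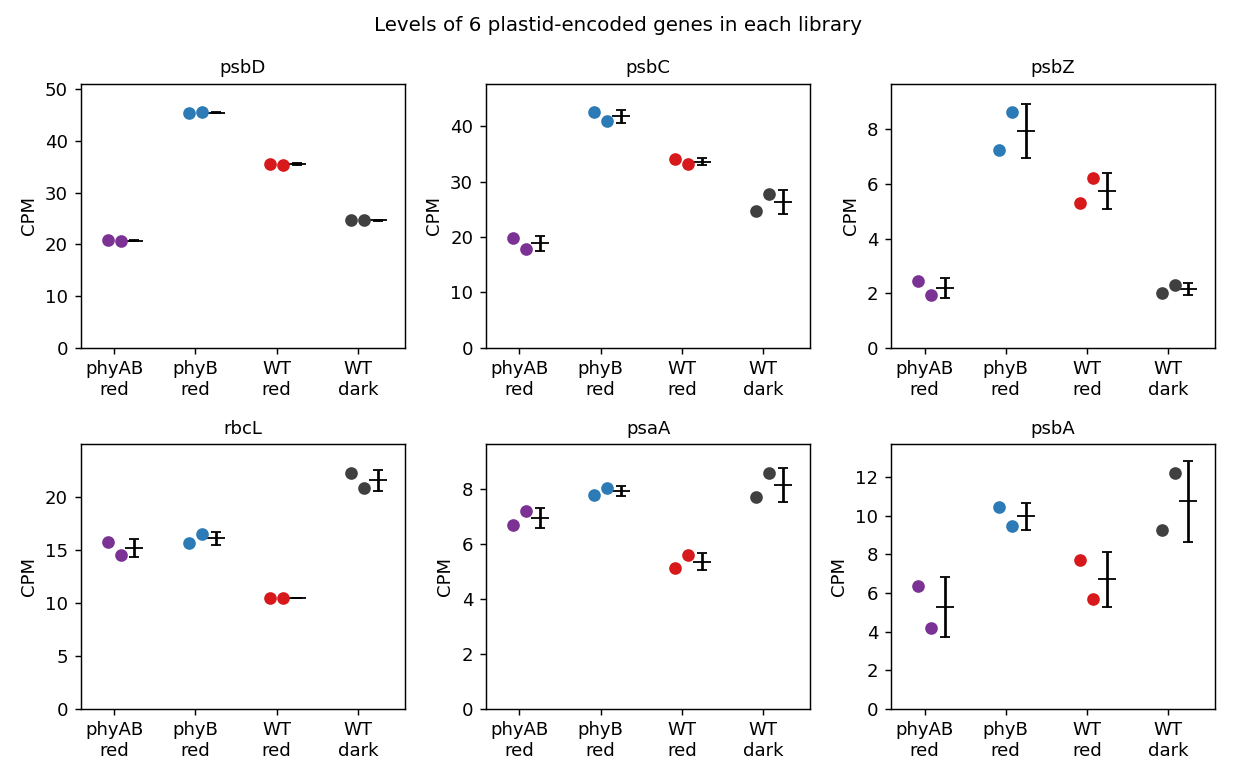
Levels of psbD, psbC and psbZ (top) and rbcL, psaA and psbA (bottom) in CPM, scaled by edgeR's TMM factors. Each dot is 1 library and the bar beside it is the mean ± SD of 2 libraries. The top genes are lowest in phyAB and WT dark, while rbcL is highest in WT dark and lowest in WT red.

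By class, 4 of 5 photosystem I genes fell with edgeR, and 1 of 5, psaA, with DESeq2. They were psaA, psaB (-0.43 ± 0.15), and psaC (-1.02 ± 0.40) and psaI (-1.01 ± 0.40), which had 150 and 154 reads over all 8 libraries. The remaining one, psaJ, a small subunit, had the most reads per length of the class and a log2 change of 0.27 ± 0.21. In photosystem II 4 genes rose and 3 of 14 fell, the falling ones being psbA, the antenna protein psbB (-0.38 ± 0.13) and the small subunit psbL (-0.88 ± 0.35). In the cytochrome b6f complex petB, cytochrome b6, fell (-0.75 ± 0.26) and 5 of 6 were not called, among them petA, cytochrome f (0.00 ± 0.20), and petN (0.25 ± 0.41). The photosystem I assembly factor ycf4 fell (-1.03 ± 0.44), on 120 reads over all 8 libraries. Of the ATP synthase genes atpE rose (0.23 ± 0.05) and 5 of 6 were not called, atpB among them (0.06 ± 0.03). In the NDH complex ndhC (0.47 ± 0.15) and ndhK (0.24 ± 0.08) rose and 10 of 12 were not called, with ndhA at 0.10 ± 0.12 and ndhF at 0.04 ± 0.14.

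The genes of the plastid's own expression machinery moved little. In the ribosomal class 1 of 25 tested genes rose, rpl33 by 0.76 ± 0.26, and rps19 (-0.15 ± 0.06) and 1 copy of rpl2 (-0.10 ± 0.04) fell, leaving 22 not called. Of the 4 RNA polymerase genes 0 were called by edgeR, DESeq2 or limma-voom, and 0 had an unadjusted p below 0.05 with edgeR. Without WT dark replicate 1, however, rpoB was called higher (0.49, edgeR adjusted p = 0.0174), and its value over the libraries left out ranged from -0.09 to 0.49. Their log2 changes were -0.03 ± 0.05 for rpoA, 0.20 ± 0.14 for rpoB, 0.25 ± 0.21 for rpoC1 and 0.19 ± 0.21 for rpoC2. Among the other proteins ycf1 rose by 0.12 ± 0.02, while accD, a subunit of plastid acetyl-CoA carboxylase, clpP1, a protease subunit, matK, a splicing factor, and both copies of ycf2 were not called. clpP1 was called lower with upper-quartile scaling (-0.23, edgeR adjusted p = 0.0188) and plastid-internal scaling (-0.22, edgeR adjusted p = 0.0275). With the reads of its identical copies summed, ycf2 was called higher (0.55, edgeR adjusted p = 0.0106).

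Of these 21 calls, 9 were kept whichever library was left out, namely psbA, psbM, psbD, psbC, psbZ, psaA, atpE, rbcL and ycf1. Without WT red replicate 1 there were 13 calls, and petB, psaB (-0.29, edgeR adjusted p = 0.218), psaC, psaI (-0.49, edgeR adjusted p = 0.454), psbB (-0.26, edgeR adjusted p = 0.203), psbL, rpl2 and rps19 were lost. Without WT dark replicate 1, ndhK, petB (-0.42, edgeR adjusted p = 0.337), psaC, psaI, psbL and ycf4 were lost. Without WT dark replicate 2, ndhC (0.41, edgeR adjusted p = 0.061), ndhK (0.19, edgeR adjusted p = 0.0816), rpl2, rpl33 and ycf4 were lost. Without WT red replicate 2, ndhK, petB, rpl2, rpl33 (0.49, edgeR adjusted p = 0.227) and ycf4 (-0.64, edgeR adjusted p = 0.347) were lost. Leaving out any mutant library also lost rpl2, and either phyB library ycf4.

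**Figure D3:**
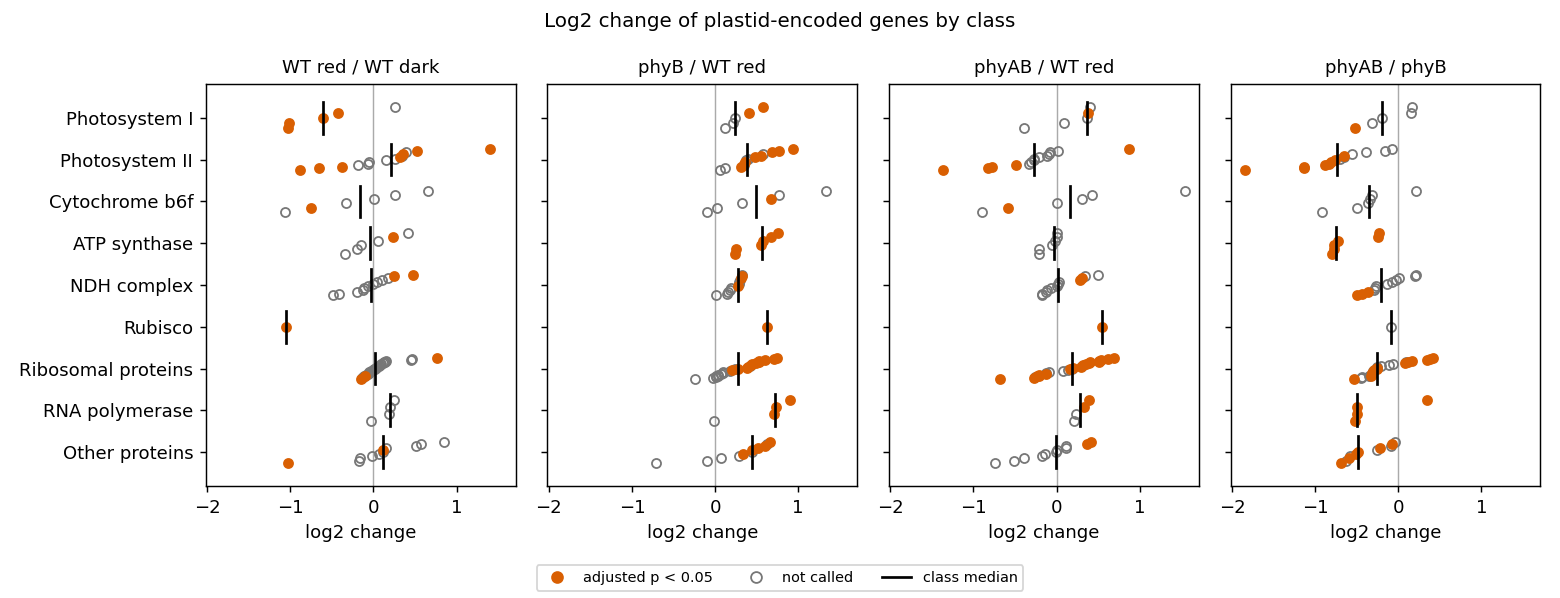
Log2 change of the 84 tested plastid genes in the 4 comparisons, by class. Each circle is 1 gene, filled where edgeR's adjusted p is below 0.05, and the vertical bar is the class median. In phyB against WT red all filled circles lie to the right of 0, and in phyAB against phyB the photosystem II and ATP synthase genes lie to the left of 0.

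Most nuclear genes for the same complexes rose in WT red against WT dark. All 12 nuclear photosystem I genes rose, with a median log2 change of 2.70, while the median of the 5 plastid-encoded ones was -0.61. All 10 nuclear photosystem II genes rose, with a median of 2.69, against 0.21 for the 14 plastid-encoded ones tested. All 4 nuclear Rubisco small-subunit genes rose, with a median of 2.29, while rbcL fell by 1.05 on the log2 scale. The 26 nuclear genes of plastid ribosomal proteins rose as well, by a median of 0.85, and the plastid-encoded ones had a median of 0.02. Of 5 nuclear NDH genes 3 rose. Their background is the 24.1% of all genes called higher, and each of these nuclear lists kept its count under every scaling tried.

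**Figure D4:**
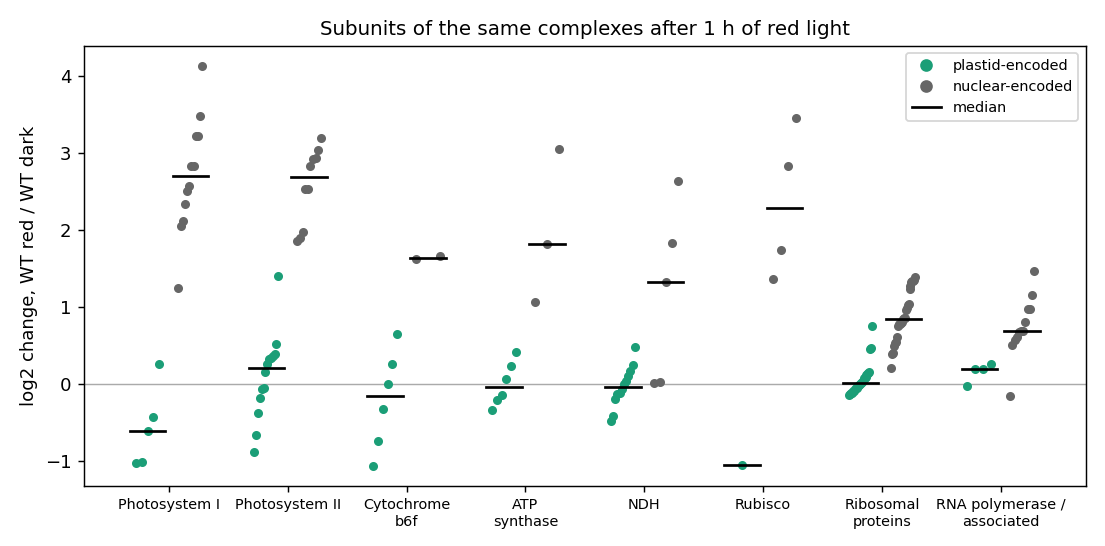
Log2 change in WT red against WT dark of genes for the same complex, encoded in the plastid (left of each pair) or the nucleus (right of each pair). Each dot is 1 gene and the bar is the median. Nuclear photosystem genes lie between 1.25 and 4.14, and the plastid-encoded genes of all complexes shown lie between -1.06 and 1.41. Other nuclear genes reach into the plastid range, down to 0.01 for NDH, 0.20 for ribosomal proteins and -0.16 for polymerase-associated proteins.

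Nuclear genes that serve plastid transcription were also called. SIG5, a sigma factor known for its use of a light-responsive promoter of psbD, read 49.5 and 47.3 CPM in WT red, against 2.84 and 3.63 CPM in WT dark, a log2 change of 3.93 ± 0.10 (edgeR adjusted p = 1.47e-70). SIG1, SIG2, SIG3, SIG4 and SIG6 rose too, by 1.67, 1.30, 0.97, 1.15 and 1.41 on the log2 scale. Of 12 genes for proteins associated with the plastid-encoded polymerase 11 rose, and all 3 genes for phage-type polymerases rose, namely RPOTp of plastids, RPOTmp of both organelles and RPOTm of mitochondria. Of 6 models known to depend largely on the phage-type polymerase (rpoB, rpoC1, rpoC2, accD and both copies of ycf2), 0 were called by edgeR, DESeq2 or limma-voom when each model was tested on its own. With copies summed ycf2 was called, as given above, and its first copy had an unadjusted p of 0.0321 with edgeR, with 2.80 and 2.82 CPM in WT red, against 1.80 and 1.99 CPM in WT dark.

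The phyB mutant was set against WT red to ask what loss of phyB changed under the same light. Of the 84 tested plastid genes 42 were higher in phyB and 0 lower, while 27.2% of all genes tested were called (13.1% higher and 14.1% lower). The median log2 change was 0.34 over the plastid genes and 0.00 over all genes, and 78 of the 84 values were positive. Counts at an unadjusted p below 0.05 were 43 higher and 0 lower with edgeR, and DESeq2 called 29 higher and 0 lower (18% of all genes in either direction). With the coefficient of variation set to 0.1, 19 were called (6.38%). With plastid-internal scaling, which moves the median of all genes to -0.33, 12 plastid genes were higher and 12 lower (64.5% of all genes called, 2.6% higher and 61.9% lower), so of the 42 calls 12 were kept, 22 had a positive value without a call and 8 turned negative.

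The genes of the plastid RNA polymerase did not move together. rpoB read 17.7 and 15.6 CPM in phyB, against 8.60 and 9.09 CPM in WT red, a log2 change of 0.91 ± 0.12 (edgeR adjusted p = 3.02e-10). rpoC1 rose by 0.70 ± 0.19 and rpoC2 by 0.73 ± 0.19, without overlap between the groups. rpoA read 66.4 and 66.1 CPM in phyB, against 66.8 and 67.3 CPM in WT red, a log2 change of -0.02 ± 0.05 that was not called. With plastid-internal scaling rpoB remained higher and rpoA became lower (-0.35, edgeR adjusted p = 2.47e-11), while rpoC1 (0.37, edgeR adjusted p = 0.0795) and rpoC2 (0.40, edgeR adjusted p = 0.0561) were no longer called. rpoC1 was also lost without WT red replicate 1 (0.59, edgeR adjusted p = 0.0718) or phyB replicate 2 (0.54, edgeR adjusted p = 0.116).

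All 6 ATP synthase genes were higher in phyB, with a median log2 change of 0.57, while with plastid-internal scaling 1 was higher and 1 lower. atpA, the alpha subunit, read 7.05 and 7.28 CPM in phyB, against 4.25 and 4.26 CPM in WT red, a log2 change of 0.75 ± 0.17 (edgeR adjusted p = 0.000164). atpB, the beta subunit, read 159 CPM in both phyB libraries, against 132 and 139 CPM in WT red, a log2 change of 0.24 ± 0.03 that turned to -0.10 with plastid-internal scaling. The same scaling turned atpE, the epsilon subunit, to -0.09. In photosystem II 8 of 14 genes were higher (2 of 14 with plastid-internal scaling), among them psbB (0.69 ± 0.12, with 13.7 and 13.8 CPM in phyB, against 7.87 and 9.28 CPM in WT red), psbI (0.77 ± 0.19), psbL (0.94 ± 0.35), psbA (0.55 ± 0.15), psbZ (0.49 ± 0.16), psbD (0.36 ± 0.06), psbC (0.31 ± 0.07, which turned to -0.02 with plastid-internal scaling) and psbM (0.35 ± 0.04). The psbD unit took 3.44% of plastid reads in each phyB library, beside 3.44% and 3.37% in WT red.

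rbcL read 15.7 and 16.5 CPM in phyB, against 10.4 CPM in both WT red libraries, a log2 change of 0.63 ± 0.11 (edgeR adjusted p = 4.54e-07). In photosystem I psaA (0.57 ± 0.15) and psaB (0.41 ± 0.15) were higher and 3 of 5 genes were not called, with 0 of 5 called under plastid-internal scaling and psaJ at 0.12 ± 0.20. In the NDH complex ndhH (0.28 ± 0.09), ndhK (0.31 ± 0.07) and ndhA (0.32 ± 0.12) were higher, but all 3 turned negative with plastid-internal scaling, ndhK at -0.02 and ndhA at -0.01. In the cytochrome b6f complex petB was higher (0.67 ± 0.27), while petA (-0.10 ± 0.20) and petN (0.03 ± 0.40) were not called. The petB call was lost with plastid-internal scaling, without the low-count filter, with DESeq2, with limma-voom and with a coefficient of variation of 0.1. Of 25 ribosomal genes 13 were higher, among them rps4 (0.74 ± 0.21) and rpl32 (0.40 ± 0.04), while plastid-internal scaling gave 6 higher and 9 lower. Of the other proteins ycf1 (0.44 ± 0.02), its partial copy, matK (0.67 ± 0.17), clpP1 (0.51 ± 0.08) and the envelope protein gene cemA (0.60 ± 0.20) were higher. Among these, only ycf1 kept its call with plastid-internal scaling. accD (-0.09 ± 0.29) and both copies of ycf2 (0.07 ± 0.24 and 0.29 ± 0.25) were not called.

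Of the 42 calls, 25 were kept whichever library was left out. Without WT red replicate 1, the lost calls were atpH, cemA, matK (0.52, edgeR adjusted p = 0.0653), ndhA, ndhH, petB, psaA (0.51, edgeR adjusted p = 0.0517), psaB (0.27, edgeR adjusted p = 0.347), psbL (0.71, edgeR adjusted p = 0.289), psbZ, rpoC1 and rps4 (0.65, edgeR adjusted p = 0.079). Without WT red replicate 2 they were atpF, atpH, atpI, ndhA, ndhH, petB, psbA (0.36, edgeR adjusted p = 0.123), psbL and rps14. Without phyB replicate 1 they were atpF, atpH, atpI, ndhA, ndhH, petB (0.47, edgeR adjusted p = 0.316), psaB, psbL and rps14. Without phyB replicate 2 they were atpF, cemA, matK, ndhA (0.32, edgeR adjusted p = 0.126), ndhH, psaB, psbI (0.61, edgeR adjusted p = 0.064), psbL, psbZ, rpoC1 and rps4.

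Of the nuclear partner genes, all 12 of photosystem I and all 10 of photosystem II were higher in phyB than in WT red, with median log2 changes of 0.24 and 0.27, whereas plastid-internal scaling turned these medians to -0.09 and -0.07. Likewise 24 of 26 nuclear genes of plastid ribosomal proteins were higher, with a median of 0.27 that turned to -0.06. That scaling shifts all genes alike and moves the median of all genes to -0.33. The turned medians thus follow from the plastid share and are no separate check of these nuclear genes. SIG5 read 81.1 and 87.9 CPM in phyB, against 49.5 and 47.3 CPM in WT red, a log2 change of 0.76 ± 0.06. SIG1, SIG2 and SIG6 were higher by 0.33, 0.31 and 0.34, and SIG3 (-0.05) and SIG4 (0.17) were not called. With plastid-internal scaling 1 sigma factor was higher and 1 lower.

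The phyAB mutant was compared with WT red, which also served phyB, so the 2 mutant comparisons share their wild-type libraries. Of the 84 tested plastid genes 21 were higher and 11 lower in phyAB, while 45% of all genes tested were called (22.3% higher and 22.7% lower). The median log2 change was 0.01 over the plastid genes and 0.00 over all genes. DESeq2 called 23 plastid genes (31.3% of all genes), and 13 were called with the coefficient of variation set to 0.1 (21%). With plastid-internal scaling, which moves the median of all genes to -0.17, 10 were higher and 22 lower (53.8% of all genes called, 12.2% higher and 41.6% lower).

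The lower genes were led by the psbD unit. psbZ read 2.44 and 1.94 CPM in phyAB, against 5.28 and 6.21 CPM in WT red, a log2 change of -1.36 ± 0.21 (edgeR adjusted p = 6.35e-09). psbC read 19.9 and 17.9 CPM in phyAB, against 34.0 and 33.2 CPM in WT red, a log2 change of -0.82 ± 0.08 (edgeR adjusted p = 2.69e-18). psbD read 20.8 and 20.7 CPM in phyAB, against 35.6 and 35.4 CPM in WT red, a log2 change of -0.77 ± 0.07 (edgeR adjusted p = 6.02e-18). Both phyAB libraries were below both WT red libraries in each gene. The unit took 1.74% and 1.63% of plastid reads in phyAB, a lower share than in any other library. psbM read 58.2 and 54.4 CPM in phyAB, against 78.4 and 79.7 CPM in WT red, a log2 change of -0.48 ± 0.05 (edgeR adjusted p = 4.62e-17).

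Outside photosystem II the lower genes were petA, cytochrome f (-0.59 ± 0.22), and 6 ribosomal genes. The ribosomal ones were rpl33 (-0.69 ± 0.26), rpl32 (-0.13 ± 0.04), both copies of rps7 (-0.24 ± 0.05 and -0.21 ± 0.05) and the 2 models of the second part of rps12 (-0.28 ± 0.06 and -0.21 ± 0.06). petA was lost without WT red replicate 2 (-0.37, edgeR adjusted p = 0.293) or phyAB replicate 1 (-0.31, edgeR adjusted p = 0.39). rpl32 was lost without the same libraries (-0.10 and -0.09, edgeR adjusted p = 0.104 and 0.169), and rpl33 without WT red replicate 2 (-0.42, edgeR adjusted p = 0.316), phyAB replicate 1 or phyAB replicate 2.

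Of 25 ribosomal genes tested 12 were higher, 10 of them in the rpl23 to rpoA cluster, while plastid-internal scaling gave 7 higher and 7 lower. ycf1 read 494 and 506 CPM in phyAB, against 383 and 390 CPM in WT red, a log2 change of 0.37 ± 0.02 (edgeR adjusted p = 6.22e-38). rbcL read 15.8 and 14.6 CPM in phyAB, against 10.4 CPM in both WT red libraries, a log2 change of 0.55 ± 0.11 (edgeR adjusted p = 7.06e-06). rpoB was higher with a log2 change of 0.39 ± 0.13, but not once WT red replicate 1 (0.34, edgeR adjusted p = 0.087) or phyAB replicate 2 (0.25, edgeR adjusted p = 0.195) was left out. rpoA was higher by 0.34 ± 0.05, with 83.1 and 86.3 CPM in phyAB, against 66.8 and 67.3 CPM in WT red. The other RNA polymerase genes, rpoC1 (0.21) and rpoC2 (0.23), were not called.

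Of the 6 ATP synthase genes 0 were called in phyAB against WT red by edgeR, DESeq2 or limma-voom, and 0 had an unadjusted p below 0.05 with edgeR, where the log2 change was 0.00 ± 0.03 for atpB and 0.01 ± 0.05 for atpE. With plastid-internal scaling they read -0.17 (edgeR adjusted p = 8.77e-06) and -0.16 (edgeR adjusted p = 0.00488). In photosystem I psaA alone was called (0.37 ± 0.16), and that call was lost without any 1 of the WT red or phyAB libraries (adjusted p from 0.0687 to 0.241 with edgeR). psbL, at 0.87 ± 0.35 on 229 reads over 8 libraries, was lost without WT red replicate 1 (0.64, edgeR adjusted p = 0.278) or either phyAB library. In the NDH complex ndhA (0.30 ± 0.12) and ndhH (0.28 ± 0.09) were higher, both lost without phyAB replicate 1 and ndhA also without either WT red library, and matK (0.42 ± 0.17) was lost without WT red replicate 1 (0.27, edgeR adjusted p = 0.35) or phyAB replicate 1. psbA (-0.33 ± 0.17), psbB (-0.12 ± 0.14), psaB (0.09 ± 0.15), ndhF (-0.11 ± 0.14), ndhK (-0.13 ± 0.07), petB (0.31 ± 0.28), petN (-0.89 ± 0.45), psaJ (-0.40 ± 0.21), clpP1 (0.01 ± 0.09), accD (-0.17 ± 0.29) and both copies of ycf2 (-0.52 ± 0.26 and -0.39 ± 0.27) were not called. Of these, psbA was called lower without WT red replicate 2 (-0.52, edgeR adjusted p = 0.0172) or phyAB replicate 1 (-0.69, edgeR adjusted p = 0.00497). Plastid-internal scaling divides by all plastid reads. In phyAB the rpl23 to rpoA cluster held 43.7% and 43.8% of them, against 37.8% and 37.9% in WT red. ycf1 and its partial copy held 20.7% and 21.3%, against 18.5% and 18.4%. That scaling called psbA (-0.50), ndhK (-0.30), psaJ (-0.57), petN (-1.06) and the first copy of ycf2 (-0.69) lower, with edgeR adjusted p from 0.000283 to 0.036. With its copies summed ycf2 was called lower as well (-0.46, edgeR adjusted p = 0.0341). In all, 21 of the 32 calls were kept whichever library was left out.

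Most nuclear partner genes were lower in phyAB than in WT red under every scaling tried. All 12 nuclear photosystem I genes, all 10 of photosystem II and all 4 of Rubisco were lower, with median log2 changes of -1.25, -1.22 and -1.05, while 22.7% of all genes tested were called lower. Of 26 nuclear genes of plastid ribosomal proteins 25 were lower, with a median of -0.38. Of 12 genes for proteins associated with the plastid-encoded polymerase 8 were lower, 1 was higher and 3 were not called. All 6 sigma factors were lower, with SIG5 at 12.9 and 13.1 CPM in phyAB, against 49.5 and 47.3 CPM in WT red (log2 change -1.97 ± 0.08). PORA was higher in phyAB than in WT red, and its part in these differences was not tested.

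The phyAB and phyB mutants were compared with each other to ask what the loss of phyA adds under red light. Of the 84 tested plastid genes 7 were higher and 36 lower in phyAB, while 50.2% of all genes tested were called (26.1% higher and 24.1% lower). The median log2 change was -0.31 over the plastid genes and 0.01 over all genes. With plastid-internal scaling, which moves the median of all genes to 0.17, 9 were higher and 20 lower (56.7% of all genes called, 42.2% higher and 14.6% lower). DESeq2 called 28 plastid genes (36.5% of all genes), and 19 were called with the coefficient of variation set to 0.1 (27.8%).

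All 14 tested photosystem II genes had negative values and 8 of them were called lower, also with plastid-internal scaling. psbD read 20.8 and 20.7 CPM in phyAB, against 45.4 and 45.6 CPM in phyB, a log2 change of -1.13 ± 0.07 (edgeR adjusted p = 9.68e-32). psbC (-1.13 ± 0.07) and psbZ (-1.85 ± 0.19) were lower with it. psbM read 58.2 and 54.4 CPM in phyAB, against 97.9 and 102 CPM in phyB, a log2 change of -0.83 ± 0.05 (edgeR adjusted p = 1.88e-36). psbA read 6.37 and 4.18 CPM in phyAB, against 10.5 and 9.49 CPM in phyB, a log2 change of -0.88 ± 0.15 (edgeR adjusted p = 5.09e-07). The photosystem II class as a whole took 5.25% and 4.94% of plastid reads in phyAB, against 8.67% and 8.72% in phyB.

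All 6 ATP synthase genes were lower in phyAB, from -0.79 for atpI to -0.24 for atpB. With plastid-internal scaling atpB (-0.08, edgeR adjusted p = 0.0545), atpE (-0.08, edgeR adjusted p = 0.187) and atpH were no longer called. DESeq2 did not call atpH or atpI. The call for atpF was lost without phyAB replicate 1, and that for atpH without phyB replicate 1 or phyAB replicate 2. The 3 RNA polymerase genes of the rpoB unit were lower, with log2 changes of -0.52 ± 0.11 for rpoB, -0.49 ± 0.18 for rpoC1 and -0.50 ± 0.18 for rpoC2, but DESeq2 called 0 of these 3. The call for rpoC1 was lost without phyB replicate 2 (-0.33, edgeR adjusted p = 0.282) or phyAB replicate 2 (-0.42, edgeR adjusted p = 0.11), and that for rpoC2 without phyB replicate 1, phyAB replicate 1 or phyAB replicate 2 (edgeR adjusted p = 0.0574 to 0.0762). Plastid-internal scaling did not call rpoC1 or rpoC2. rpoA, the other subunit of the same enzyme, was higher by 0.35 ± 0.05.

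rbcL did not pass the test, with 15.8 and 14.6 CPM in phyAB and 15.7 and 16.5 CPM in phyB (log2 change -0.08 ± 0.10). ycf1 was lower (log2 change -0.08 ± 0.02), and this turned to 0.08 with plastid-internal scaling. The higher genes included rpoA, rpl36, rpl14, rpl16 and rps3, which lie in the rpl23 to rpoA cluster. clpP1 (-0.51 ± 0.08), rpl32 (-0.53 ± 0.04), ndhK (-0.44 ± 0.07), psbB (-0.81 ± 0.12), psaJ (-0.51 ± 0.20) and both copies of ycf2 (-0.59 ± 0.25 and -0.68 ± 0.26) were lower. Neither plastid-internal scaling nor DESeq2 called psaJ or either copy of ycf2, and upper-quartile scaling did not call the first copy. Not called were psaA (-0.20 ± 0.14), psaB (-0.32 ± 0.14), petA (-0.49 ± 0.22), petB (-0.36 ± 0.25), petN (-0.92 ± 0.44), ndhA (-0.02 ± 0.11), ndhF (-0.29 ± 0.14), matK (-0.25 ± 0.16) and accD (-0.08 ± 0.29). petA lay at the threshold: it was called lower with RLE factors (-0.50, edgeR adjusted p = 0.0459), with limma-voom, with only the groups compared, and without any 1 of 5 libraries (-0.49 to -0.76), while it read -0.36 without phyB replicate 2 and -0.21 without phyAB replicate 1, neither of them called. psaB was called lower with only the groups compared (-0.33, edgeR adjusted p = 0.0492) or without phyAB replicate 1 (-0.51, edgeR adjusted p = 0.0213). ndhF was called lower without phyAB replicate 1 (-0.57, edgeR adjusted p = 0.00612) and with the replicate block (edgeR adjusted p = 0.0489). Of the 43 calls, 28 were kept whichever library was left out. psaJ was lost without any 1 of the phyAB or phyB libraries (edgeR adjusted p = 0.0579 to 0.141), and each copy of ycf2 without 3 of these 4.

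The rpl23 to rpoA cluster is a run of genes, from rpl23 (Pltd:85862-86143, minus strand) to rpoA (Pltd:77901-78890, minus strand), that is transcribed largely as a unit. It codes for ribosomal proteins and, at its far end, for the alpha subunit of the RNA polymerase. With the second copies of rpl23 and rpl2 it took 43.7% and 43.8% of plastid reads in phyAB, 37.7% and 37.8% in phyB, 37.8% and 37.9% in WT red and 39.1% and 39.4% in WT dark. The phyAB libraries were thus above all others.

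The 2 mutants differed along the cluster. At its start, rpl2 read 95.8 and 95.9 CPM in phyAB, 118 and 122 CPM in phyB, 85.2 and 85.5 CPM in WT red and 89.7 and 92.7 CPM in WT dark. In the middle, rps3 read 142 and 146 CPM in phyAB, 127 and 129 CPM in phyB, 86.9 and 91.4 CPM in WT red and 79.8 and 88.2 CPM in WT dark. At its end, rpoA read 83.1 and 86.3 CPM in phyAB, 66.4 and 66.1 CPM in phyB, 66.8 and 67.3 CPM in WT red and 70.0 and 66.9 CPM in WT dark. Thus phyB was the highest group for rpl2, and phyAB was the highest for rps3 and rpoA.

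Set against WT red, the log2 change in phyB was 0.45 ± 0.11 for rpl23, 0.50 ± 0.04 for rpl2, 0.60 ± 0.06 for rps19, 0.53 ± 0.05 for rpl22 and 0.53 ± 0.04 for rps3. From there on it was 0.20 ± 0.03 for rpl16 and 0.28 ± 0.03 for rpl14, both of which turned negative with plastid-internal scaling. rpl36 (0.01 ± 0.09) and rpoA (-0.02 ± 0.05) were not called. In phyAB the change was 0.19 ± 0.11 for rpl23, not called, and 0.17 ± 0.04 for rpl2, which was near 0 and not called with that scaling. It was 0.69 ± 0.04 for rps3, 0.39 ± 0.03 for rpl14 and 0.34 ± 0.05 for rpoA. Between the mutants, rps3, rpl16, rpl14, rpl36 and rpoA were higher in phyAB and rpl23 and rpl2 were lower (-0.26 ± 0.11 and -0.33 ± 0.04), all past edgeR's test. With the coefficient of variation set to 0.1 none of these genes was called. DESeq2 did not call rpl16 or rpl23, and plastid-internal or upper-quartile scaling did not call rpl23. The call of rpl23 was lost without either phyB library or phyAB replicate 1, and that of rpl16 without phyB replicate 2 or phyAB replicate 1. Neighbouring genes lie on shared transcripts and rps3 and rpl22 overlap by 16 bases, so their values are not independent.

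**Figure D5:**
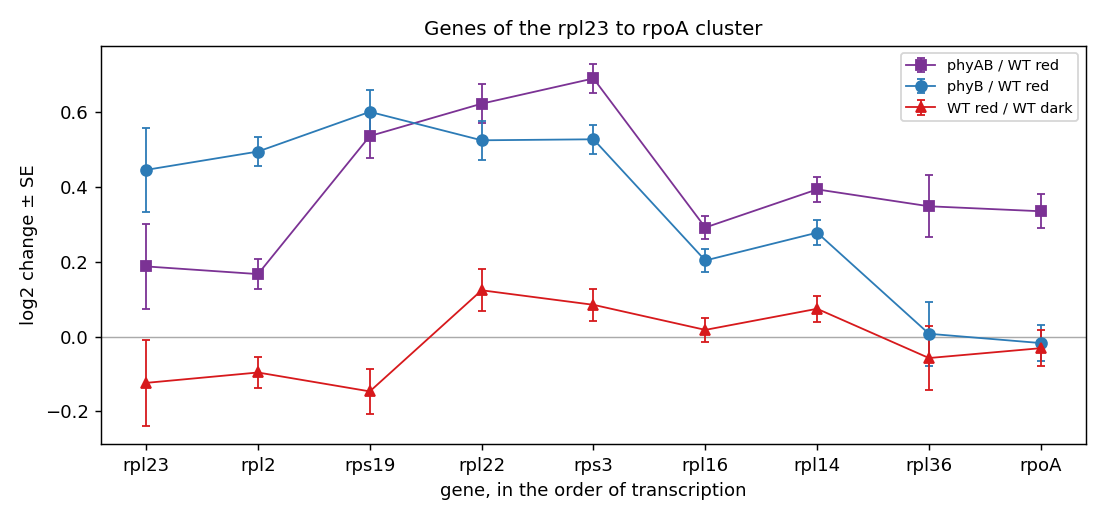
Log2 change ± SE of 9 genes of the rpl23 to rpoA cluster, in the order of transcription, in 3 comparisons. phyB against WT red lies between 0.45 and 0.60 over the first 5 genes and near 0 for rpl36 and rpoA, while phyAB against WT red is highest at rps3 with 0.69 and WT red against WT dark lies between -0.15 and 0.12.

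Several members share sequence, which limits what their values can show. There were 7 pairs of models with a copy in each inverted repeat, and the copies of rpl2, rpl23, rps7 and ycf2 have identical coding sequences in RefSeq. Their reads were split almost evenly, with a ratio of the first to the second copy of 0.973 for rpl2, 0.969 for rpl23, 0.985 for rps7 and 1.03 for ycf2 over all libraries. The copies are therefore not independent genes in the counts above. The partial copy of ycf1 matches ycf1 over the first 1030 bases of its coding sequence, and it overlaps ndhF on the opposite strand by 39 bases. Strand is not known for these counts, so reads from overlapping genes on opposite strands cannot be told apart.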

How the data were processed

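The values used were the read counts per gene model and the RPKM values in the tables the authors deposited for each library, and the submitters' processing notes name TAIR 10 as the genome. How reads were aligned and counted, and whether by strand, is not given in the sources used here. Counts were raw, and the authors' RPKM served only to compare levels between genes. The members, gene lists and tests were chosen with earlier results of these data known.

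Counts of all 8 libraries were fitted together with edgeR 4.0.16 (quasi-likelihood test, TMM factors, low-count filter) in R 4.3.3, with Benjamini-Hochberg adjustment over 20716 genes and a threshold of 0.05. Alternatives were other scalings (plastid-internal scaling uses plastid reads alone), no filter, DESeq2 1.42.0, limma 3.58.1 (voom), a coefficient of variation of 0.1, only the groups compared, a replicate block, summed inverted repeat copies and leaving out each library. The fit was tested on simulated data. Total reads per library were 15926547 to 22116924.

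Genes named were a fixed set of known genes, the 5 largest rises and falls without overlap per comparison, and the gene with most reads per length of each class. Gene names come from a hand-written table. For 78 of the 88 models the coding length equals that of the same-named RefSeq sequence of TAIR10.1, and 10 had no such match. Some genes of the rpl23 to rpoA cluster are counted in the totals but not reported here by name.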

Additional observations from a re-analysis of the deposited data

How the results depend on the processing

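Leaving out 1 library at a time gave 13 to 21 plastid genes called in WT red against WT dark, 31 to 42 in phyB against WT red, 23 to 32 in phyAB against WT red and 35 to 44 in phyAB against phyB, with median log2 changes of -0.0237 to 0.0443, 0.3337 to 0.3661, -0.0106 to 0.0379 and -0.3234 to -0.3079 in that order. DESeq2 called 10 in WT red against WT dark and 28 in phyAB against phyB. With the coefficient of variation set to 0.1 the counts were 12, 19, 13 and 19 in the order above. Plastid-internal scaling gave 24 calls and a median of 0.0067 in phyB against WT red, and a median of -0.1647 in phyAB against WT red. It reversed psbC (-0.0233), atpB (-0.0967), ndhA (-0.0095), atpE (-0.0866) and ndhK (-0.0202) in phyB against WT red, atpB (-0.1719) and atpE (-0.1644) in phyAB against WT red, and ycf1 (0.0841) in phyAB against phyB. Without the 10 most abundant nuclear transcripts the plastid share was 0.269% in phyAB, 0.294% in phyB, 0.229% in WT red and 0.226% in WT dark. A replicate block gave 20, 42, 32 and 46 calls. Differences between replicates 1 and 2 had correlations of -0.0036 to 0.027 between groups. These differences are largely counting noise, so the correlations cannot decide whether same-numbered libraries were paired. The other settings kept each count within 1.5 times. Small genes such as psbL, with 229 reads over all libraries, are limited by depth. The cause of these changes was not tested.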
